A study of Homo sapiens with 17 samples.

Results

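The peak lists compared here placed sites of FOSL2 (also called Fra2), an AP-1 subunit, on the map of FOXA1, a forkhead factor, in the A549 line, which was established from a human lung carcinoma. The members were the regions of chromosomes 1 to 22 and X that both lists of a factor called, which gave 10190 FOSL2 regions of 50138 called in either list and 35739 FOXA1 regions of 92627. A FOSL2 region and a FOXA1 region that overlapped by at least 1 bp are called shared, and 4818 of the 10190 FOSL2 regions were shared. FOSL2 regions that touched no FOXA1 peak of either list are called FOSL2-only, and FOXA1 regions that touched no FOSL2 peak are called FOXA1-only. The series used ChIP-seq, which sequences the chromatin fragments that an antibody against a protein or histone mark pulls down. It has 17 samples, of which 14 have a peak list and 3 are inputs that were not analysed here, and this comparison rests on 4 of the lists. FOXA1 was profiled in 2 libraries of wild-type (WT), untreated A549 cells, here called parental, with an antibody from GeneTex. FOSL2 was profiled in 2 libraries of A549 cells with A-Fos integrated by piggyBac transposition, given no doxycycline, with a Fra2 antibody from Cell Signaling Technology. The same uninduced A-Fos cells gave 2 further FOXA1 libraries with the GeneTex antibody, and the parental cells gave 2 libraries each of H3K9me3 and H3K27me3, which serve below as second measurements. The titles call the libraries of each group biological replicates. The factors were thus mapped in different cells, and a peak list holds no value for how much A-Fos the uninduced cells made. The labels used here do not say whether the A-Fos line is 1 clone.

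AP-1 is a dimer of a Fos protein with a Jun protein, and it binds a short palindromic element that phorbol ester, growth factor and stress signals act through. A-Fos is a dominant-negative Fos that pairs with Jun proteins in a form that cannot bind DNA, and doxycycline turns it on in this line. FOXA1 is a pioneer factor of lung, liver and other endoderm epithelia that can bind its element on nucleosomes. AP-1 and forkhead factors are both known for occupying enhancers away from gene starts in epithelial cells.

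Promoter windows that held the summits of both factors show which of the searched elements lay near them. The windows came from RefSeq (GRCh38.p14), 300 bases each, from 250 before to 50 after a gene's start. They numbered 22012 and belonged to 15712 of 19974 protein-coding genes. Of these windows, 23 held both the FOSL2 and the FOXA1 summit of a shared region. The 250 bases before the start are printed 5′ to 3′ along the gene's strand for 4 of the 8 windows of highest mean enrichment rank, chosen to show an AP-1 element in duplicate, alone, and next to forkhead elements. TSPAN4, a tetraspanin gene, is added as a FOXA1-only promoter and was chosen because it holds a forkhead match. Capitals mark TGACTCA, the AP-1 element, or TGTTTAC, a forkhead element, on either strand.
MBNL2: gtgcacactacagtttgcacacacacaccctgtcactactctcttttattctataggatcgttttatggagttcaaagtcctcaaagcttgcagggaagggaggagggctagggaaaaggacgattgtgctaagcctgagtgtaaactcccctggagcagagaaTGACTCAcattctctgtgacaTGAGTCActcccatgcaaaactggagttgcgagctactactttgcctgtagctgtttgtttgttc
MSANTD3: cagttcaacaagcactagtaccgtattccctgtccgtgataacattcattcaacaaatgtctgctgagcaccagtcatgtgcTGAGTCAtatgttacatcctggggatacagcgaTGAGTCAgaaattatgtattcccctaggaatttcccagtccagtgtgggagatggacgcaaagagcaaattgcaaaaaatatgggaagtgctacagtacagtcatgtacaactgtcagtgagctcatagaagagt
SMAD3: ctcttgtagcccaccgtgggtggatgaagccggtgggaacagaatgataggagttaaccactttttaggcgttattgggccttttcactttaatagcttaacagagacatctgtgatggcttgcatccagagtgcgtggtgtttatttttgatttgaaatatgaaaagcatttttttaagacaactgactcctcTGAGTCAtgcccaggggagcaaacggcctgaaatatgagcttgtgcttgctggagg
C10orf90: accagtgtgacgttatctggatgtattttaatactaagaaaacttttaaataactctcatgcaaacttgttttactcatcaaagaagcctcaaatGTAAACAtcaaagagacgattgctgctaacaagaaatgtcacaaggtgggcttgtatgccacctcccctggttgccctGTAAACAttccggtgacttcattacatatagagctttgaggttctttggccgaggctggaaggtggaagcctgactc
TSPAN4: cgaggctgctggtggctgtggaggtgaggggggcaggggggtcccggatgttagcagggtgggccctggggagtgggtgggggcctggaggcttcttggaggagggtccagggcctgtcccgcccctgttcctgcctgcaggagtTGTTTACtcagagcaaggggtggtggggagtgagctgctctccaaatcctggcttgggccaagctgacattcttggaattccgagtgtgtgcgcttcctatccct
The stretches are chr13:97141584-97141833 on the plus strand for MBNL2, a splicing regulator, and chr9:100429364-100429613 on the plus strand for MSANTD3. They are chr15:67125492-67125741 on the plus strand for SMAD3, a mediator of TGF-beta signals, chr10:126521442-126521691 on the minus strand for C10orf90, and chr11:844164-844413 on the plus strand for TSPAN4.

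Positions count bases from the start site as 0. In MBNL2 the AP-1 matches began at -86 and -65, and the FOSL2 summit at -75 was 8 and 13 bp from their centres. The FOXA1 summit there was 52 and 31 bp from the same centres, and the MBNL2 window held no forkhead match. FOSL2 enrichment at MBNL2 was 87.6-fold in list 1 and 27.6-fold in list 2, and FOXA1 enrichment was 10.7-fold and 28.3-fold. Both factors were thus called at a promoter that matched AP-1 alone among the elements searched. Forkhead forms other than the exact TGTTTAC and TGTTTGC were not searched. Near its end the MBNL2 stretch holds tgtttgt, which differs from TGTTTGC in its last base. MSANTD3 held a pair of AP-1 matches, at -168 and -135, with the FOSL2 summit 19 and 14 bp and the FOXA1 summit 6 and 27 bp from them. SMAD3 held a single AP-1 match, at -56, which was 18 bp from the FOSL2 summit and 55 bp from the FOXA1 summit. The FOXA1 summit, at -108, lay on tgtttat, which differs from TGTTTAC in its last base and was not searched. In C10orf90 the forkhead matches began at -155 and -77, each 39 bp from the FOXA1 summit, while its AP-1 match began at -6 and ran up to the start base, so it carries no capitals above. That AP-1 match was 29 bp from the FOSL2 summit and 110 bp from the FOXA1 summit. At C10orf90 the 2 factors' summits therefore each lay nearer to the element named for that factor. FOXA1 enrichment at the TSPAN4 promoter was 81.7-fold and 174-fold, with the summit at -107 and the forkhead match at -105.

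The AP-1 element was common under FOSL2 summits whether or not FOXA1 was called there in the parental cells. TGACTCA was found in 885 of all 22012 windows (4.02%), TGTTTAC in 629 (2.86%) and TGTTTGC, a second forkhead element, in 748 (3.40%), each on either strand. A window with several matches was counted once. Of 39 windows with the FOSL2 summit of a shared region, 31 held TGACTCA (79.5%, 95% exact Clopper-Pearson interval 63.5 to 90.7), against 16 of 20 windows with a FOSL2-only summit (80.0%, 56.3 to 94.3). The intervals overlap widely, so no difference in AP-1 elements between shared and FOSL2-only promoters was detectable at these numbers. Of 32 windows with the FOXA1 summit of a shared region, 23 held TGACTCA (71.9%, 53.3 to 86.3). FOXA1-only summits stood apart from these: 16 of 498 windows held TGACTCA (3.21%, 1.85 to 5.17), near the share over all windows. The forkhead element ran the other way, with TGTTTAC in 145 of the 498 FOXA1-only windows (29.1%, 25.2 to 33.3) and in 4 of the 32 windows with a shared FOXA1 summit (12.5%, 3.51 to 29.0). Those forkhead intervals overlap. TGTTTGC was in 44 of the 498 FOXA1-only windows (8.84%) and in 3 of the 32 shared ones (9.38%). Windows can share a region: 453 distinct FOXA1-only regions lay behind the 498 windows and 19 FOSL2-only regions behind the 20, so the intervals, which treat windows as independent, are too narrow there. Matches are letters in a window, not sites, and promoters held few of the regions, and these shares describe promoters alone.

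**Figure D1:**
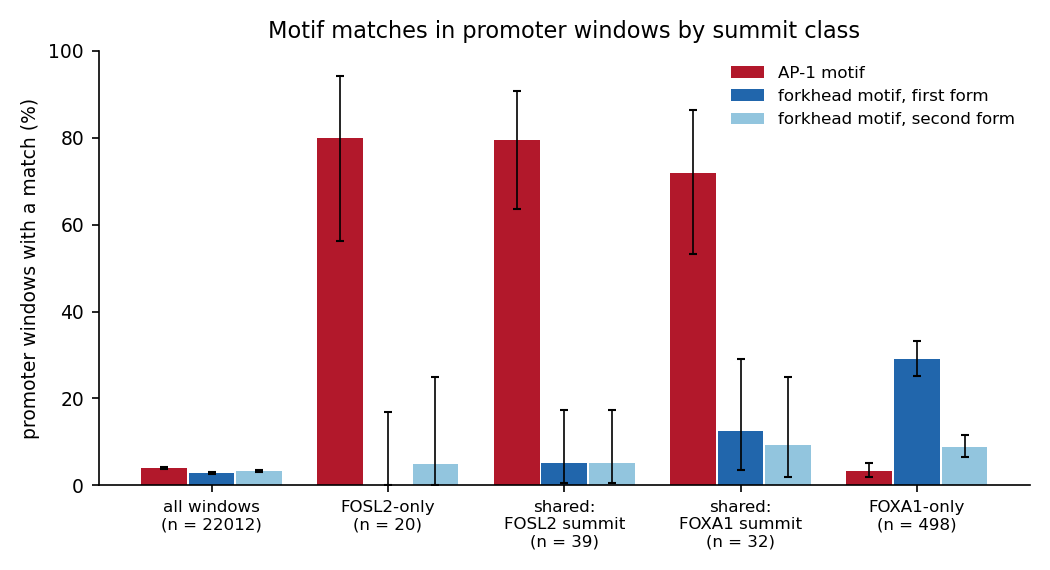
Bars give the percent of promoter windows with an AP-1 match (TGACTCA) or a forkhead match (first form TGTTTAC, second form TGTTTGC), for all windows and for windows that hold a summit of the named class. Lines are 95% exact intervals, and the AP-1 bars of the FOSL2-only and both shared classes stand at 71.9% to 80.0% against 3.21% in FOXA1-only windows.

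Where both summits fell in one window, the AP-1 element was nearly always present. It was in 21 of the 23 windows (91.3%, 72.0 to 98.9), TGTTTAC was in 2 and TGTTTGC in 1. AP-1 with either forkhead element was found in 3 of the 23, against 65 of all windows (0.295%). Nearly all of the 23 held AP-1, so the closer comparison is among windows with AP-1: 3 of 21 against 65 of 885. It rests on 3 windows. Over the 21 windows the median distance from the FOSL2 summit to the nearest AP-1 match was 15.0 bp (1 to 79), and from the FOXA1 summit 34.0 bp (4 to 232). The FOSL2 summit was the closer one in 15 of the 21 windows. The window of JMJD1C, a jumonji-domain gene, held neither an AP-1 nor a forkhead match, although FOSL2 enrichment there was 19.6-fold and 8.28-fold and FOXA1 enrichment 10.7-fold and 15.7-fold. FOSL2's own promoter was among the 23, with an AP-1 match that began at 4, 3 bp from the FOSL2 summit and 82 bp from the FOXA1 summit.

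The lists themselves differed in length, which bears on every overlap. The FOSL2 lists held 45586 and 14842 peaks with median enrichments of 6.40-fold and 4.50-fold, and the FOXA1 lists 49448 and 80318 peaks with medians of 5.31-fold and 5.19-fold. Enrichments are the linear ratios over background that the authors' peak caller gave, and they were used here to rank peaks within a list. Peak lists carry no read numbers, so depth is unknown. FOSL2 list 1 and FOXA1 list 2 were the long ones, so the number of regions called in both was limited by FOSL2 list 2 and FOXA1 list 1. Regions called in 1 list alone ranked lower and carried more repressive marks. The 4555 regions of FOSL2 list 2 alone met a FOXA1 region in 1.32% of cases and both H3K27me3 lists in 23.7%, while the 35393 of FOSL2 list 1 alone met a FOXA1 region in 20.8% and H3K27me3 in 7.0%.

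Of the 10190 FOSL2 regions, 4818 overlapped a parental FOXA1 region (47.3%, 46.3 to 48.3), which is the background against which the subsets below are read. A further 2566 (25.2%, 24.3 to 26.0) met FOXA1 peaks that did not make a region, and 2806 (27.5%, 26.7 to 28.4) met none. In 2496 of those 2566 regions the peak was in FOXA1 list 2 alone. Read from the FOXA1 side, 4811 of 35739 regions (13.5%, 13.1 to 13.8) overlapped a FOSL2 region, and 23764 (66.5%) met no FOSL2 peak. Most FOXA1 regions thus had no FOSL2 call, while most FOSL2 regions had some FOXA1 call. The intervals cover counting error over regions, and the lists varied far more. Single pairs of lists gave 25.9%, 43.1%, 30.8% and 50.0% of FOSL2 peaks with a FOXA1 peak (mean 37.4%, SD 11.1 over 4 pairs). The reverse share was 24.3%, 24.3%, 9.30% and 9.14% of FOXA1 peaks (mean 16.8%, SD 8.71). The order followed the list on the other side: longer FOXA1 lists covered more FOSL2 peaks and the longer FOSL2 list covered more FOXA1 peaks. Taking FOSL2 regions from list 1 alone gave 26.8% shared (and 33.4% of FOXA1 regions), from list 2 alone 32.8%, and leaving out FOXA1 list 1 gave 71.8%.

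Overlaps were deep rather than grazing. The 4838 overlapping pairs of regions had a median overlap of 519 bp, and in 4754 pairs (98.3%) it covered at least 50% of the shorter region. One FOSL2 region met one FOXA1 region in 4746 pairs (98.1%). In 4202 pairs (86.9%) each factor's summit lay inside the other's region. For FOSL2 regions without a FOXA1 region, the nearest one lay up to 1 kb away for 437 of 5372 (8.13%) and 1 to 10 kb away for 1812 (33.7%). It lay 10 to 100 kb away for 2700 (50.3%) and farther for 423 (7.87%). Of the 5372, 2566 did meet a FOXA1 peak that made no region. No expected distance was computed. Across chromosomes the shared percentage of FOSL2 regions ran from 34.3% on chromosome 22 to 53.9% on chromosome 17, with 37.2% on X.

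Summits of the factors were close but farther apart than summits of replicate lists. The median distance over the 4838 pairs was 81.5 bp (quartiles 34.0 and 194), with 56.7% within 100 bp and 92.2% within 500 bp. Between single lists the medians were 83, 71, 91 and 80 bp. At the same shared regions the summits of FOSL2 lists 1 and 2 differed by a median of 13.0 bp and those of FOXA1 lists 1 and 2 by 12 bp, with 95.2% and 90.7% within 100 bp. Each distance between factors therefore exceeded both distances between replicates, and the 4 pairings of lists did not overlap the 2 replicate values. The median distance was 99.8 bp in the lowest quintile of pairs by mean rank and 67.5 bp in the highest. The far tail ran the other way, with 93.8% of pairs within 500 bp in the lowest quintile and 90.3% in the highest.

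**Figure D2:**
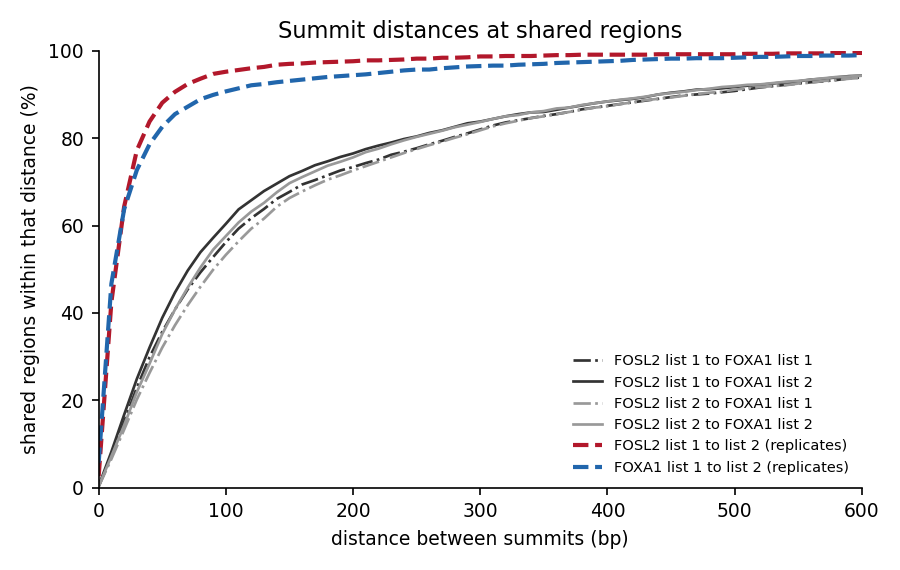
Curves give the percent of shared regions (vertical axis) whose summits lie within a given distance in bp (horizontal axis), for the 4 pairings of a FOSL2 with a FOXA1 list and for the replicate lists of each factor. The replicate curves reach 95.2% and 90.7% at 100 bp, above all 4 curves between factors at 53.3% to 60.4%.

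FOSL2 enrichment was ranked higher at regions that overlapped a FOXA1 region of the parental cells, in both FOSL2 lists. In percentiles within a list, which run from the weakest to the strongest peak, shared regions had a median of 89.5 in FOSL2 list 1 and FOSL2-only regions 83.2 (21.3-fold and 16.0-fold enrichment). In FOSL2 list 2 the medians were 69.8 and 57.8 (6.07-fold and 4.95-fold). The differences were 6.22 and 12.1 percentile points (mean 9.15, SD 4.14, n = 2 lists), and regions with an incomplete FOXA1 call lay between, at 88.1 and 65.3. FOSL2 regions defined by 1 list alone gave larger differences, 32.1 points without list 2 and 39.4 without list 1, and leaving out FOXA1 list 2 gave 5.94. The quartiles of the classes overlapped: in FOSL2 list 1 the shared regions ran from 80.8 to 95.6 and the FOSL2-only regions from 68.4 to 91.7.

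FOXA1 enrichment showed the same order on its own lists. Shared regions had median percentiles of 73.7 in FOXA1 list 1 and 87.0 in list 2, against 58.2 and 71.5 for FOXA1-only regions, a difference of 15.5 points in each list. Median FOXA1 enrichment was 8.14-fold and 17.1-fold at shared regions and 5.88-fold and 8.25-fold at FOXA1-only regions. With FOXA1 regions taken from list 2 alone the difference was 31.6 points, and from list 1 alone 29.2 points. Shared regions were also wider, with medians of 781 bp against 459 bp for FOXA1 and 599 bp against 487 bp for FOSL2. Wider regions have more room to overlap, so the shares were also taken with intervals of 200 bp around each summit. From the lowest to the highest decile of FOSL2 enrichment the shared percentage went from 29.1% to 64.1% with whole regions and from 22.6% to 48.7% with 200 bp intervals. Over deciles of FOXA1 enrichment it went from 5.99% to 28.5%, and from 4.55% to 22.8% with 200 bp. Ranked by FOXA1 list 1 alone, the lowest 4 deciles were level, at 10.8%, 10.3%, 9.23% and 9.68%, while by list 2 alone the lowest decile was at 3.61%. With the mean ranking, the highest decile thus stayed above the lowest with the 200 bp intervals. The rise was not even: over FOSL2 deciles 4 to 8 the percentage stayed between 33.8% and 38.1%. Overlapping 200 bp intervals of a factor's 2 lists were merged, so region widths were still not equal.

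**Figure D3:**
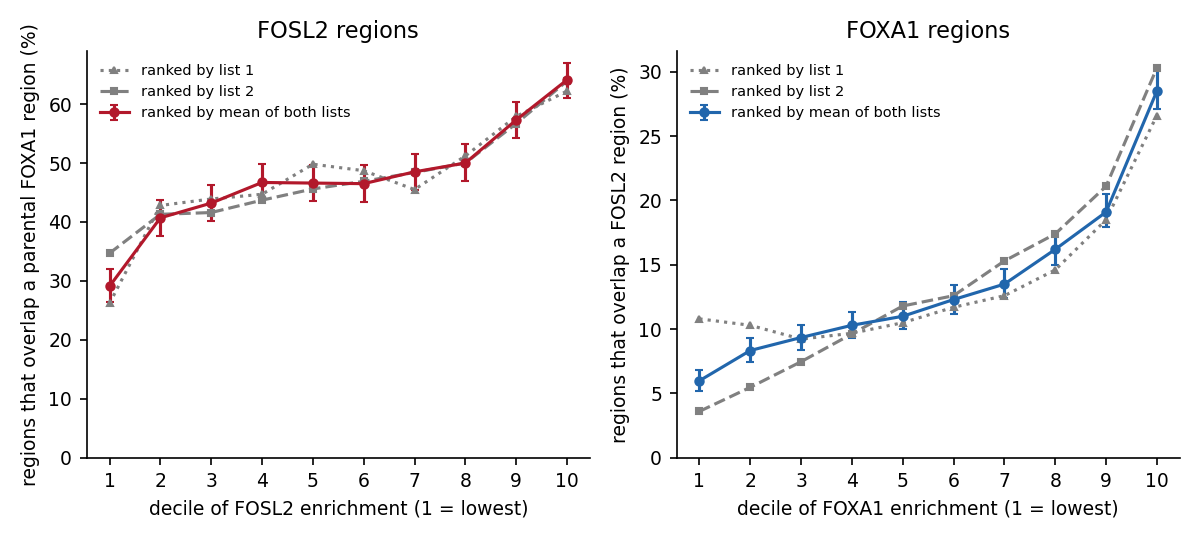
Points give the percent of FOSL2 regions that overlap a FOXA1 region (left) and of FOXA1 regions that overlap a FOSL2 region (right) in each decile of the region's own enrichment, with 95% exact intervals on the ranking by the mean of both lists. Shares go from 29.1% to 64.1% on the left and from 5.99% to 28.5% on the right, and rankings by single lists differ mainly in the lowest deciles.

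Although each factor ranked higher at shared regions, the ranks of the 2 factors did not track each other among those regions. Over the 4838 pairs Spearman's rho between FOSL2 and FOXA1 percentiles was -0.0171, -0.0197, 0.00823 and 0.0218 for the 4 pairings of lists, and Pearson's r for the mean percentiles was -0.000496. Replicate lists of one factor had a rho of 0.811 for FOSL2 and 0.906 for FOXA1 over their shared regions. These are correlations across regions, which share libraries and are not independent replicates. Splitting each factor's ranks into a lowest, middle and highest group of equal size gave 510 to 569 pairs in each of the 9 combinations, or 10.5% to 11.8% of pairs.

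**Figure D4:**
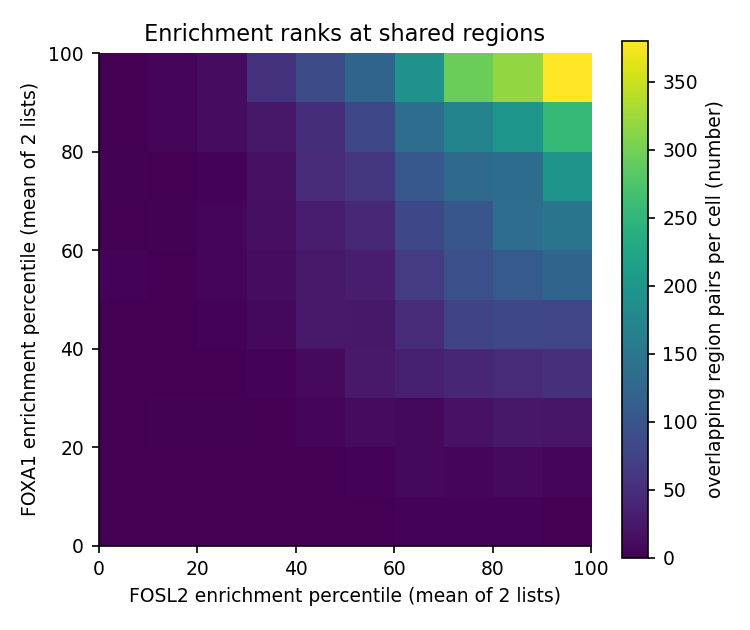
Colour gives the number of overlapping region pairs by FOSL2 percentile (horizontal axis) and FOXA1 percentile (vertical axis), each the mean of 2 lists. Pairs gather in the upper right (380 in the cell above the 90 percentile for both), as both factors rank high at regions called in both lists, and rho for the mean percentiles is 0.00550.

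The shared regions that ranked highest for both factors lay mostly away from gene starts. The first was 727 kb from KCNA4, a voltage-gated potassium channel gene (chr11:29282048-29282804). FOSL2 enrichment at the KCNA4 region was 127-fold and 30.2-fold, and FOXA1 enrichment 84.4-fold and 209-fold, with summits 68.5 bp apart. A region 231 kb from DAD1, a subunit of the oligosaccharyltransferase (chr14:22333885-22334433), had FOSL2 enrichments of 71.1-fold and 20.8-fold and FOXA1 enrichments of 101-fold and 213-fold. Both regions stood at or above the 99.2 percentile of all 4 lists. Regions inside genes included those in JAK1, a cytokine receptor kinase (chr1:64897967-64898898), with FOSL2 at 74.1-fold and 27.5-fold and FOXA1 at 56.6-fold and 98.7-fold. TCF7L2, a nuclear effector of Wnt signals (chr10:113087151-113087877), had FOSL2 at 70.7-fold and 24.7-fold and FOXA1 at 52.9-fold and 122-fold, with summits 29.0 bp apart. MTFR1, a mitochondrial fission regulator, and ZNF507, a zinc finger gene, also held such a region inside the gene. The remaining regions of the 12 were nearest TCP11L2, the prostaglandin receptor gene PTGER4, the pregnancy glycoprotein gene PSG1, the glucocorticoid receptor gene NR3C1, PDCD6IP, which encodes the endosomal adaptor ALIX, and the hyaluronan synthase gene HAS2. Summits at the PTGER4 region were 8.0 bp apart and at the NR3C1 region 1130 bp apart. Those 12 distances ran from 8.0 to 1130 bp.

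Very strong FOSL2 regions also existed with no FOXA1 peak in either parental list. The region 210 kb from ACTBL2, an actin-like gene, had FOSL2 enrichments of 115-fold and 45.9-fold, the second being the highest of list 2. Others lay inside TOX, an HMG-box factor of lymphocytes (98.6-fold and 28.9-fold), 313 kb from EBF1, a B-cell transcription factor (106-fold and 27.2-fold), and 8.25 kb from CBLB, a ubiquitin ligase (70.4-fold and 29.8-fold). All 4 stood at or above the 99.7 percentile of both FOSL2 lists. A second region near DAD1, 27.8 kb away, was FOSL2-only at 105-fold and 21.6-fold, so that gene was nearest to both a top shared and a top FOSL2-only region. The rest of the 8 were nearest TOPAZ1, ANKFY1 and TMEM167A. On the FOXA1 side the strongest region without FOSL2, 139 kb from the ribosomal protein gene RPLP1, had FOXA1 enrichments of 312-fold and 795-fold, and that in SPINK1, a trypsin inhibitor gene, 154-fold and 361-fold. The strongest FOXA1 call of list 2 therefore had no FOSL2 peak. The other FOXA1-only regions named by the same ranking were nearest BICC1, LIMA1, BAHCC1 and SCIMP.

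Some shared regions were strong for 1 factor and weak for the other. In TGFBR2, a TGF-beta receptor (chr3:30611780-30612358), FOSL2 stood at percentiles 97.7 and 97.3 and FOXA1 at 4.97 and 13.6, with summits 3.50 bp apart. PTPN14, a phosphatase gene, ABLIM3, an actin-binding gene, and MKLN1 showed the same order, with FOSL2 at 82.5 or above and FOXA1 at 19.6 or below in every list. In LTBP1, a latent TGF-beta binding protein (chr2:33104012-33104489), the order was opposite, with FOSL2 at 24.6 and 6.61 and FOXA1 at 97.5 and 97.3, and summits 10.0 bp apart. IDO2, PARD3B and SPOCK1 followed LTBP1. These were chosen for their contrast, so the contrast is a description. A TGFBR2 region chosen by overall rank (chr3:30658923-30659936) had FOSL2 at 93.5 and 62.4 and FOXA1 at 99.2 and 99.4, so FOXA1 ranked low at one TGFBR2 region and high at another.

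Genes with a shared region within 50 kb numbered 4247 of 19974 (21.3%), against 3261 (16.3%) with a FOSL2-only region and 12749 (63.8%) with a FOXA1-only region. The same count was 2205 (11.0%) within 10 kb and 6456 (32.3%) within 100 kb, and 7961 within 50 kb when FOSL2 regions came from list 1 alone. PDE4D, a cyclic AMP phosphodiesterase of 1553 kb, had the most, 14 shared regions, followed by NAV2, PRKCA and THSD4 with 10 each. Longer genes have wider windows, so list counts are given with the background and not tested.

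Among the 7 Fos and Jun genes, 2 had a shared region within 50 kb (28.6%), FOSL2 and FOSB. The FOSL2 gene's region (chr2:28392658-28393048) covered its start, with FOSL2 at percentiles 66.1 and 37.9 and FOXA1 at 37.6 and 61.6. The FOSB region lay 3.84 kb away, with FOSL2 at 23.6 and 14.8 and FOXA1 at 21.9 and 35.2. Neither ranked with the strong shared regions. JUN, the main partner of Fos proteins, had its nearest shared region 52.9 kb away (FOSL2 at 96.0 and 80.4, FOXA1 at 47.3 and 77.9) and a FOSL2-only region 24.9 kb away. FOS had its nearest shared region 253 kb away and a FOXA1-only region 0.711 kb away. The FOXA1 gene had a FOXA1-only region 0.330 kb away (FOXA1 at 90.5 and 90.7) and its nearest shared region 270 kb away. Of the 8 BATF, ATF and small MAF genes, relatives that pair with Fos or Jun proteins, 7 had a shared region within 50 kb (87.5%). These were 7 distinct regions, and JDP2 alone had none at that distance. Within 10 kb the count was 4 of 8 (50.0%), against 11.0% of all genes. Within 100 kb it was 8 of 8, against 32.3%. At ATF3, a stress-induced factor, it lay inside the gene (chr1:212566904-212567512), with FOSL2 at 31.4-fold and 9.35-fold and FOXA1 at 11.2-fold and 32.4-fold. The region in BATF (chr14:75535707-75536379), which is also the nearest to FOS, had summits 2.00 bp apart, FOSL2 at 15.8-fold and 5.57-fold and FOXA1 at 14.7-fold and 36.5-fold.

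Of 27 matrix, adhesion and cytokine genes tied to AP-1, 10 had a shared region (37.0%). CXCL8, the neutrophil chemokine (chr4:73740314-73740772), had a shared region with FOSL2 at 17.1-fold and 3.98-fold and FOXA1 at 66.2-fold and 131-fold. LIF and IL6, both cytokines, had regions 44.2 kb and 8.81 kb away. No member of the matrix metalloprotease genes in this list (MMP1, MMP2, MMP3, MMP9, MMP10, MMP13 and MMP14) had a shared region, and MMP2 and MMP13 had a FOSL2-only one. LAMB3, a laminin chain of the basement membrane, had 4 FOSL2-only regions and 0 shared. Of 19 EGFR and MAPK feedback genes, 8 had a shared region (42.1%). EGFR, the receptor, had 5, the first at chr7:55132614-55133372 with FOSL2 at 32.6-fold and 7.63-fold and FOXA1 at 19.0-fold and 41.7-fold. ERRFI1, an inhibitor of EGFR, and SPRED2, a MAPK inhibitor, had 2 each. The higher-ranked SPRED2 region (chr2:65366406-65367154) lay at an internal start, inside the gene and 59.6 kb from its nearer end. FOSL2 was there at 88.4-fold and 22.8-fold and FOXA1 at 6.94-fold and 13.7-fold. HBEGF, an EGFR ligand, had 0 shared and 2 FOSL2-only regions.

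Of 12 genes of the YAP pathway or regulated by YAP with AP-1, 8 had a shared region (66.7%). ANKRD1, a common YAP reporter gene, had it 0.242 kb away (chr10:90921065-90921915), with FOSL2 at 25.3-fold and 9.63-fold and FOXA1 at 42.1-fold and 98.6-fold. TEAD1, the DNA-binding partner of YAP, had 4. At CCND1, cyclin D1, FOXA1 enrichment was 596-fold in list 1 and 104-fold in list 2, so list 1 was far above list 2 there. CCN2 and MYC had none. Of 17 TGF-beta and mesenchymal transition genes, 7 had a shared region (41.2%), with 26 distinct regions, and SMAD3 alone had 8. LTBP1 and TGFBR2 had 5 each and TGFB2, a ligand, had 4, while TGFB1, TGFBR1, ZEB1 and VIM had 0. The median gene in that list is 75.2 kb long against 24.2 kb over all protein-coding genes.

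Within 50 kb, 37.5% of lung lineage genes and 17.4% of lung epithelial products had a shared region, against 21.3% of all protein-coding genes. Of 16 lung and foregut lineage genes, 6 had a shared region (37.5%): EHF, CEBPB, SOX9, ELF3, GRHL2 and KLF5. EHF, an epithelial ETS factor (chr11:34653766-34656352), had FOSL2 at 104-fold and 18.6-fold and FOXA1 at 25.6-fold and 75.4-fold. FOXA2, GATA6 and HNF4A had FOXA1-only regions and 0 shared, and NKX2-1, the lung master regulator, had neither. Of 23 lung epithelial products, 4 had a shared region (17.4%), KRT18, KRT8, KRT7 and CDH1, which are keratins and E-cadherin. Within 10 kb the counts were 2 of 16 (12.5%) and 3 of 23 (13.0%), near the 11.0% of all protein-coding genes. KRT18 and KRT8 are neighbours with the same 4 shared regions, and the highest-ranked of these (chr12:52949702-52950190) had FOSL2 at 24.5-fold and 5.07-fold and FOXA1 at 62.8-fold and 135-fold. The surfactant genes SFTPA1, SFTPA2, SFTPB, SFTPC and SFTPD had 0 shared regions. Of 10 blood markers none had a shared region, while 4 of 10 neuron and muscle markers and 4 of 10 fibroblast and endothelial markers did. Expression was not measured here. Of 12 housekeeping genes, 2 had one (16.7%).

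Stress and hormone genes were also represented. Of 16 NRF2 targets, which serve the antioxidant response, 8 had a shared region (50.0%), but AKR1C1, AKR1C2 and AKR1C3 lie together and name the same one (chr10:5009049-5009828). Its FOSL2 enrichments were 39.8-fold and 7.62-fold and its FOXA1 enrichments 71.8-fold and 169-fold. TXNRD1, thioredoxin reductase, had 4, while NQO1, HMOX1 and GCLM had 0. Of 10 glucocorticoid response genes, 5 had one (50.0%): NR3C1, ZFP36, PER1, SGK1 and FKBP5. Inside NR3C1, the receptor gene (chr5:143355708-143356110), FOSL2 was at 31.3-fold and 8.82-fold and FOXA1 at 30.8-fold and 53.6-fold, with summits 27.5 bp apart. Of 15 liver plasma protein genes, 3 had one (20.0%), APOH, AMBP and AHSG. The liver list is near the 21.3% background for shared regions. FOXA1-only regions were near 14 of the 15 (93.3%), against 63.8% of all genes. That share was not particular to liver genes: over the gene lists it ran from 30.0% (blood markers) to 100% (EGFR and MAPK feedback, glucocorticoid response). The fibrinogen genes FGA, FGB and FGG, neighbours whose 50 kb windows overlap and can count the same region, had 7, 7 and 8 FOXA1-only regions and 0 shared.

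**Figure D5:**
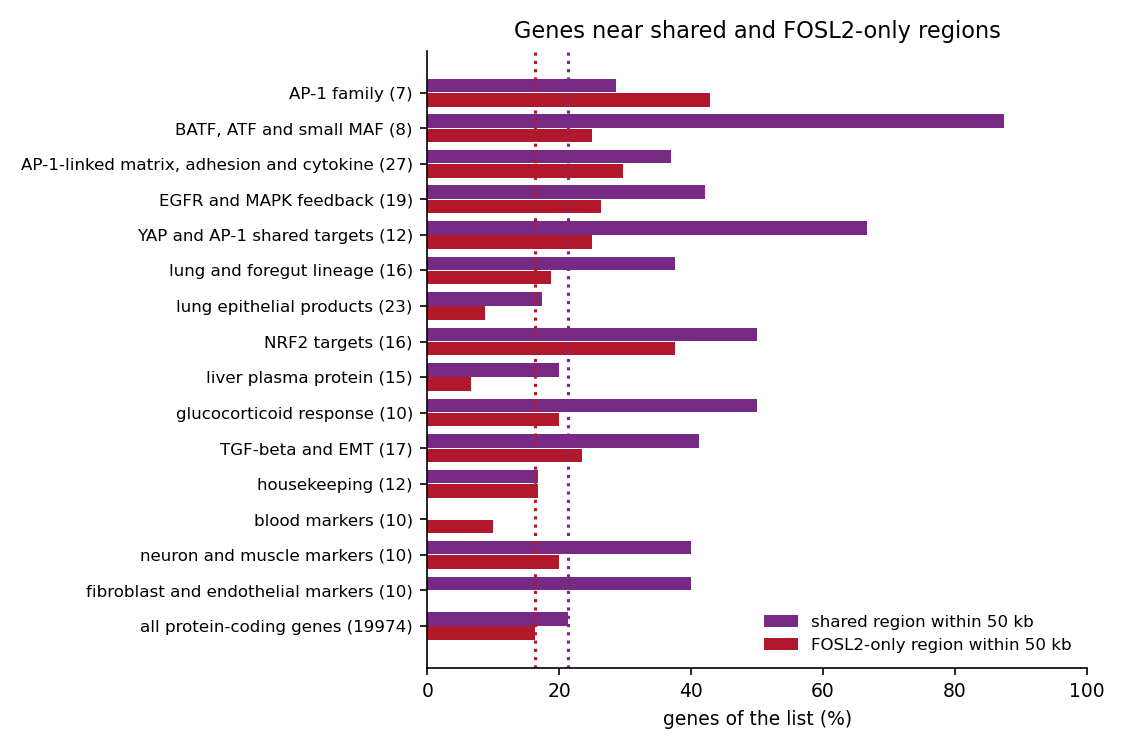
Bars give the percent of each list's genes (number in brackets) with a shared or a FOSL2-only region within 50 kb, and dotted lines give the same over all 19974 protein-coding genes, 21.3% and 16.3%. The BATF, ATF and small MAF list stands highest for shared regions at 87.5%, and the blood marker list is at 0. Within 10 kb, not drawn, the BATF, ATF and small MAF list is level with the YAP and glucocorticoid lists at 50.0%. Within 100 kb, not drawn, the blood marker list is at 30.0% against 32.3% of all genes.

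Shared regions lay away from gene ends, more so than FOXA1-only regions. Of the shared FOSL2 summits, 2.39% (1.97 to 2.86) were within 1 kb of either end of a protein-coding gene, against 3.10% (2.49 to 3.81) of FOSL2-only and 7.58% (7.25 to 7.93) of FOXA1-only summits. The median distance to a gene end was 40.9 kb for shared, 33.3 kb for FOSL2-only and 35.7 kb for FOXA1-only regions. Similar shares lay inside genes, 47.4%, 48.2% and 51.0%. At 1 kb the shared and FOSL2-only intervals overlap, while the FOXA1-only interval lies apart from both. Within 10 kb the shares were 18.8% (17.7 to 20.0) for shared, 22.9% (21.4 to 24.5) for FOSL2-only and 26.5% (25.9 to 27.1) for FOXA1-only summits, and no pair of these intervals overlaps.

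Repressive marks of the parental cells were rarer at shared than at FOSL2-only regions. H3K9me3, a mark of heterochromatin, overlapped 230 of all 10190 FOSL2 regions by at least 1 bp in both of its lists (2.26%). It overlapped 56 of the shared (1.16%, 0.879 to 1.51) and 134 of the FOSL2-only regions (4.78%, 4.02 to 5.63). H3K27me3, the Polycomb mark, overlapped 202 of all (1.98%), 26 of the shared (0.540%, 0.353 to 0.790) and 153 of the FOSL2-only regions (5.45%, 4.64 to 6.36). Single mark lists gave the same order: 1.56% against 7.34% and 2.57% against 7.88% for H3K9me3, and 0.664% against 6.38% and 0.996% against 8.37% for H3K27me3. FOSL2 enrichment moved with these shares. In the lowest quintile of FOSL2 enrichment the marks overlapped 0.843% of shared and 10.4% of FOSL2-only regions (H3K9me3) and 1.12% and 12.6% (H3K27me3). In the highest quintile the values were 1.54% and 2.64% (19 and 8 regions), and 0.0808% and 1.32% (1 and 4 regions). The intervals of both pairs overlap there: 0.927 to 2.39 and 1.15 to 5.14 for H3K9me3, 0.00205 to 0.450 and 0.361 to 3.35 for H3K27me3. The contrast was therefore larger in weak than in strong FOSL2 regions. With every list, those of FOXA1 and of the marks included, cut to its more enriched upper part, which redefines the FOSL2-only regions and shortens the mark lists, the differences were -0.213 and -0.753 percentage points. Regions from FOSL2 list 2 alone gave differences of -13.4 and -15.9 points, from FOSL2 list 1 alone -5.16 and -8.28, and without FOXA1 list 2 the differences were -1.74 and -2.62, against -3.61 and -4.91 with all 4 lists. Whether the weak FOSL2-only regions are FOSL2 sites was not tested.

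The uninduced A-Fos cells, in which FOSL2 was mapped, also had FOXA1 lists, and these were shorter. Each parental FOXA1 list overlapped 46.2% and 71.8% of the FOSL2 regions, and each A-Fos FOXA1 list 17.5% and 27.1%. The parental lists were higher without overlap, 59.0% ± 18.1 against 22.3% ± 6.82 (SD, n = 2 each), a difference of 36.7 points and the exact permutation test over the 4 libraries (two-sided) gave p = 0.333, which is the lowest value possible with 2 against 2. Cut to the 7633 strongest peaks each, the parental lists overlapped 15.8% and 19.0% and the A-Fos lists 17.5% and 18.6%, or 17.4% ± 2.28 and 18.1% ± 0.784 (exact permutation p = 1.00). At equal length the groups overlapped. With whole lists the difference was 23.6 points when FOSL2 regions came from list 1 alone and 23.8 when parental FOXA1 list 2 was left out. A FOXA1 region of the A-Fos cells overlapped 1685 of the 10190 FOSL2 regions (16.5%, 15.8 to 17.3). Nearly all of these FOSL2 regions were on the parental map as well. They were 1678 of the 4818 shared regions (34.8%, 33.5 to 36.2) and 7 of the 5372 other FOSL2 regions (0.130%, 0.0524 to 0.268).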

How the data were processed

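Peak lists of 14 ChIP-seq samples of A549 cells were deposited, 1 per library. Each deposited list, in the narrowPeak layout, gives the authors' fold enrichment, a linear ratio, and the −log10 of the q-value, whose lowest deposited value was near that of q = 0.05. The submitters' processing notes name hg38 as the build and list MACS2, deepTools, DRAGEN, BWA 2.2.1, SAMtools 1.8 and fastp 0.23.2. Their settings were not given in the sources used here, and depth is unknown. Libraries were grouped by title.

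Peaks of a factor's 2 lists were merged (overlap of at least 1 bp) and kept where both lists called them. A region's summit was the mean of the lists' strongest summits, and percentiles were ranks within a list. Genes were the 19974 protein-coding intervals of a RefSeq GRCh38.p14 table, and a region was named by its nearest gene; 212 of 212 listed genes matched. Promoter windows on chromosome 8, which holds 666 of the FOSL2 regions, were not used here, so no promoter share includes them. The named regions were the 12 shared, 8 FOSL2-only and 6 FOXA1-only regions of highest mean percentile, 4 of greatest contrast each way, 8 promoter windows, up to 6 genes per list, and FOXA1, FOSL2, FOS and JUN. TSPAN4 and the list members named with 0 regions were chosen after their values were seen. The members and lists were chosen with earlier results of these data known. Intervals (95%, Clopper-Pearson) cover counting error only, and no test was made across regions. Computations used Python 3.11.15, numpy 2.4.6, pandas 2.3.3 and scipy 1.17.1, and overlap functions were tested on simulated data.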

Additional observations from a re-analysis of the deposited data

How the results depend on the processing

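Of 83 recomputed values, 43 counted as the same, 39 as moved and 1 as reversed. The same meant a shift below the spread between lists, or for counts of genes a ratio of at most 1.5. For the difference between the FOXA1 maps it meant only an unchanged sign. Map differences from 23.6 to 49.5 points with a library left out thus counted as the same as 36.7. The reversal was the difference between the parental and A-Fos FOXA1 maps, -0.658 points. There only the FOXA1 lists were cut, to the 7633 peaks of the shortest of them. With every list, marks included, cut to the peaks above its median enrichment, the FOSL2 and FOXA1 percentile differences were 3.54 and 7.54 points, the mark differences -0.213 (H3K9me3) and -0.753 (H3K27me3) points, and 2571 genes had a shared region within 50 kb. With 200 bp around each summit, 35.9% of FOSL2 regions were shared, the median summit distance was 53.5 bp, the FOXA1 percentile difference 13.8 points and the mark differences -2.11 and -2.60. An overlap of at least 50% gave a FOXA1 percentile difference of 16.0. Peaks called in either list gave percentile differences of 33.8 (FOSL2) and 27.5 (FOXA1), mark differences of -6.89 and -10.0, and 10774 genes. FOSL2 and parental FOXA1 lists cut to the 14842 peaks of the shortest of them gave 25.7% of FOSL2 regions shared. Windows of 10 and 100 kb gave 2205 and 6456 genes.

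Leaving out each library in turn gave 26.8% to 71.8% of FOSL2 regions shared, 9.23% to 33.4% of FOXA1 regions, summit distances of 71.5 to 84.0 bp, percentile differences of 5.94 to 39.4 (FOSL2) and 12.7 to 31.6 (FOXA1), map differences of 23.6 to 49.5 points, mark differences of -13.4 to -1.74 (H3K9me3) and -15.9 to -2.62 (H3K27me3), and 4157 to 7961 genes. Replicate numbers came from the titles, and nothing says that they pair FOSL2 with FOXA1 libraries of other cells. With the replicate block, which compares libraries of the same number, the values were 37.9%, 16.7%, 75 bp, 32.3 and 27.2 points. The causes of these shifts were not tested. Depth cannot be read from the lists, so a missing call is not evidence of no binding.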
